A study of Mus musculus with 6 samples.

Results

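The type I interferon antiviral effectors are genes whose products act directly on viral RNA, viral proteins or infected cells, or attach and remove the modifier ISG15. They were taken here as 10 named genes, Isg15, Usp18, Ifit1, Ifit2, Ifit3, Mx1, Mx2, Rsad2, Oasl2 and Oas1a, and all 10 were found among the 24421 gene rows of the deposited tables. Their RNA was measured by poly(A) sequencing in 6 samples of colon tissue from C57BL/6 mice, given as FPKM, fragments scaled to transcript length and to the mapped fragments of the library. The DSS group comprised 3 samples with chronic colitis after dextran sulfate sodium, an agent toxic to the epithelial lining of the colon. The other 3 samples were control colon. The age label gives 7 weeks for every sample, and the sources used here do not give the dose or schedule of DSS. The labels do not say if each sample is a different mouse. The p-values therefore reflect just the variation among these 6 samples, which may be technical.

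Type I interferons (interferon alpha and beta) and type III interferons (interferon lambda) bind different receptors but both act through ISGF3, a transcription factor complex that binds the interferon-stimulated response element in the promoters of these genes. Interferon gamma has its own receptor and is the main inducer of a partly separate set, the guanylate-binding proteins, immunity-related GTPases and CXCR3 chemokines. In the gut, lambda interferon acts largely on epithelial cells, and alpha and beta interferons on leukocytes and stroma as well.

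Most of the effectors did not pass the test in DSS colon. Ifit2 and Usp18 rose, Oas1a fell, and Isg15, Ifit1, Ifit3, Rsad2 and Oasl2 did not pass (limma on log2(FPKM + 1) across all genes, Benjamini-Hochberg adjusted p under 0.05, with 3 or more samples required to reach 1 FPKM). Mx1 and Mx2 were too low to enter the test. Thus 2 of 8 tested members were higher, where 6.34% of all 12348 tested genes were higher, and 1 was lower, where 2.56% of all were lower. Either way, 3 of 8 members were called, against 8.9% of all tested genes. The median log2 fold change of the 8 tested members was 0.15, and that of all tested genes was 0.13. A fold change on this scale understates the change of genes with low values. The shares over all genes depended on scaling: 71.2% of all calls were higher in DSS without further scaling, 53.8% after upper-quartile and 50.8% after median-of-ratios scaling, and the all-gene median log2 fold change was then 0.02 and 0.0.

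**Figure D1:**
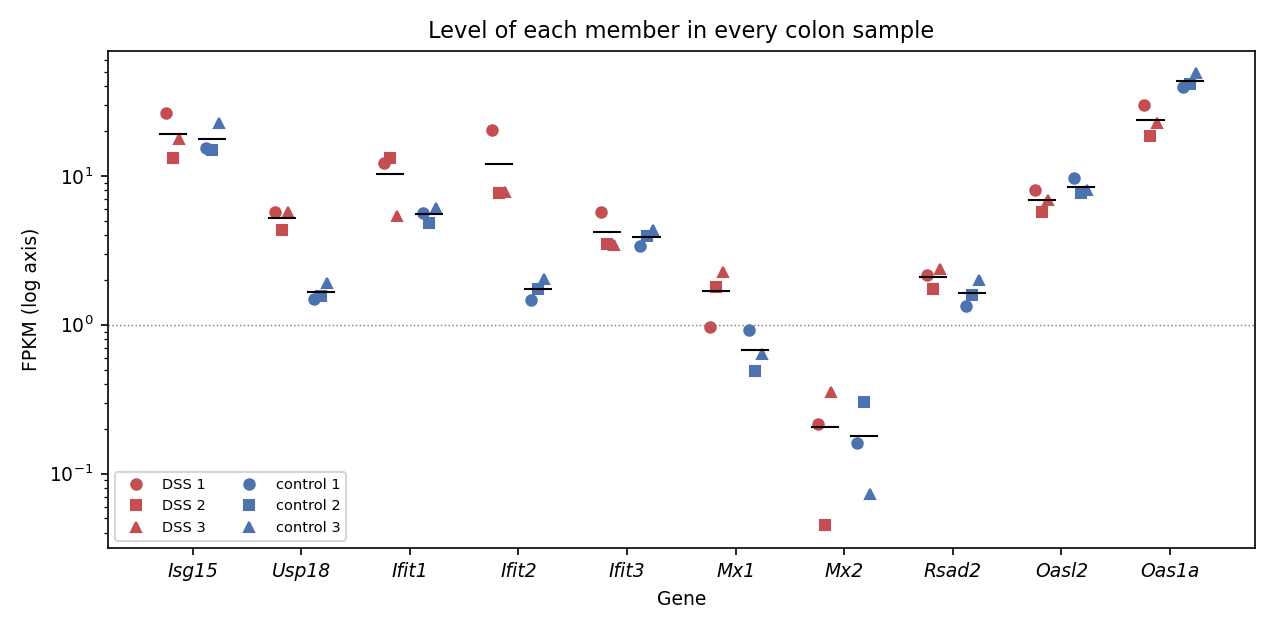
FPKM of each of the 10 members in every sample, on a log axis, with the 3 DSS samples left of the 3 control samples of each gene and black lines at the group means. The groups do not overlap for Usp18, Ifit2 and Mx1 (DSS above) or for Oas1a (DSS below), and they overlap for the other members; the dotted line marks 1 FPKM.

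The samples themselves were of uneven likeness. Pearson correlations of log2(FPKM + 1) over tested genes lay between 0.936 and 0.961 within DSS colon and between 0.971 and 0.986 within control colon, and DSS 1 correlated with the controls at between 0.932 and 0.937. Epithelial genes marked all samples as colon, with Epcam at between 680 and 1017 FPKM in DSS samples, against 974 to 1248 FPKM in control samples. Read totals are unknown, because low values did not fall into steps of whole reads. The housekeeping gene Gapdh was listed at 0, 21.4 and 36.1 FPKM in DSS 1, 2 and 3. In control 1, 2 and 3 it was listed at 2, 0.1175 and 0.1449 FPKM. A listed 0, or a low value above 0, can therefore be a failed estimate in either group. In pieces of tissue, fewer cells of a type and less RNA per cell cannot be told apart.

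Isg15 and Usp18 form opposite sides of ISGylation, the attachment of the ubiquitin-like protein ISG15 to other proteins. Isg15 (chromosome 4, 156199424 to 156200818, GRCm38, GENCODE vM21) encodes the modifier. Its level was 26.5, 13.1 and 17.7 FPKM in DSS 1, 2 and 3, against 15.5, 14.9 and 22.7 FPKM in control 1, 2 and 3. The groups overlapped, with DSS 1 highest and DSS 2 lowest of all 6 samples. The fitted log2 fold change was 0.08 ± 0.28 (SE), with a 95% interval between -0.57 and 0.72 and adjusted p = 0.884 (limma), and its sign turned with median-of-ratios or upper-quartile scaling and without DSS 1, control 1 or control 2. Isg15 shares 95.2% identity over 482 bases with the annotated transcript AC151275.1, so part of its reads may be ambiguous. Usp18 (chromosome 6, 121245906 to 121270917) encodes the protease that removes ISG15 from proteins and, separately, binds the receptor chain IFNAR2 and dampens type I interferon signalling. Its level was 5.71, 4.32 and 5.69 FPKM in DSS 1, 2 and 3, against 1.49, 1.56 and 1.91 FPKM in control 1, 2 and 3. Every DSS sample lay above every control sample, and the DSS mean was 3.17 times the control mean. The rise had a log2 fold change of 1.23 ± 0.18 (SE, limma adjusted p = 0.00839), and it missed the threshold without control 2 (adjusted p = 0.0519) and passed under the other alternatives. An annotated non-coding gene on the opposite strand, Gm44148, overlaps a Usp18 exon by 124 bases, and the non-directional library cannot tell their reads apart.

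The enzymes that attach ISG15 were compared with the modifier. Uba7, the activating enzyme, rose to 16.8 ± 0.670 FPKM in DSS, against 9.07 ± 0.983 FPKM in control colon (SD, n = 3 each, limma adjusted p = 0.0164), and missed the threshold when DSS 3 or a control was left out (adjusted p up to 0.0828). Ube2l6, the conjugating enzyme, had 18.5 ± 4.54 FPKM in DSS samples, against 12.1 ± 0.382 FPKM in control samples, and Herc6, the main ISG15 ligase of mice, had 3.12 ± 0.402 FPKM in DSS samples, against 1.88 ± 0.325 FPKM in control samples. Neither passed (limma adjusted p = 0.108 and 0.11). Trim25, a ubiquitin ligase also linked to ISG15, had 18.5 ± 2.1 FPKM in DSS samples, against 21.1 ± 4.12 FPKM in control samples. Within a sample, the ratio of Usp18 to Isg15 was 0.215, 0.329 and 0.322 in DSS 1, 2 and 3, against 0.0962, 0.105 and 0.0844 in control 1, 2 and 3. The ratio was higher in 3 of 3 DSS samples than in any control, by 1.58 on the log2 scale. This ratio was chosen after the values were seen and is given as a description.

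The Ifit genes encode tetratricopeptide proteins that bind RNA. Ifit1 recognises the caps of viral RNA that lack a methyl mark of the host, Ifit2 binds AU-rich RNA, and in human cells IFIT3 stabilises IFIT1. All 3 members lie in a cluster on chromosome 19, with Ifit2 at 34550694 to 34576419, Ifit3 at 34583531 to 34588731 and Ifit1 at 34640871 to 34650009 on the same strand. Their promoter windows are shown because neighbouring genes with different changes can be set side by side. Each runs from 250 bases before to 50 bases after the start (RefSeq, GRCm38.p6, chr19:34550444-34550743, chr19:34583279-34583578 and chr19:34640639-34640938, plus strand), and capitals mark the core of the interferon-stimulated response element, searched as TTTC and TTTC with 2 bases of any kind between them, or as GAAA and GAAA with the same gap for the other strand, overlaps counted.
Ifit2: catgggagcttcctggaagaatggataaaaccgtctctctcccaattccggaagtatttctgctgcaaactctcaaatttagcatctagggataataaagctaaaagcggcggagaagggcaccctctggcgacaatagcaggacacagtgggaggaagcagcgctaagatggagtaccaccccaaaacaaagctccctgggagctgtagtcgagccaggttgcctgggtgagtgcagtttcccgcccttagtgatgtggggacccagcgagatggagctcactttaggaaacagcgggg
Ifit3: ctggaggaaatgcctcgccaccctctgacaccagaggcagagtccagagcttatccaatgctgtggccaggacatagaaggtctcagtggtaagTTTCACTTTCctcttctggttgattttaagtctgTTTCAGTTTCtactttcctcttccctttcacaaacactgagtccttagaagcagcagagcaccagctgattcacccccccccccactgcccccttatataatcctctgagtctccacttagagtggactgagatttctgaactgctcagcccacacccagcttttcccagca
Ifit1: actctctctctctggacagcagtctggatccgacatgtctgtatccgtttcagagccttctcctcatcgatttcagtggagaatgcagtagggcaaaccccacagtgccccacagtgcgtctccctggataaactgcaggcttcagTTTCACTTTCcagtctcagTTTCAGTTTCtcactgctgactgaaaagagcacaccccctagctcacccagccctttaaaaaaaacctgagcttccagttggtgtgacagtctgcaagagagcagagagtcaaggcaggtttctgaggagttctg

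The windows of Ifit3 and Ifit1 each hold 2 matches, whose first bases lie 156 and 122 bases before the start of Ifit3 and 104 and 85 bases before that of Ifit1. In both genes the matches read TTTCACTTTC and TTTCAGTTTC. The Ifit2 window shown, and a second RefSeq window of the gene, hold no match. The search covered just these windows and this form of the core. An element elsewhere in or near Ifit2, or of another form, would have been missed. Of the 10 members 7 had a RefSeq window, with 8 windows in all, and 5 of those 7 genes held at least 1 match on either strand. Counted by window and not by gene, 3.44% of all 32851 windows did. The matches are given as a description of the letters.

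Ifit2 had the largest fitted change of the tested members. Its level was 20.4, 7.69 and 7.74 FPKM in DSS 1, 2 and 3, against 1.47, 1.73 and 2.02 FPKM in control 1, 2 and 3. Every DSS sample lay above every control, with DSS 1 well above DSS 2 and DSS 3, and the DSS mean was 6.87 times the control mean. The rise had a log2 fold change of 2.11 ± 0.35 (SE, limma adjusted p = 0.0149). Without DSS 1 it was 1.67 ± 0.19 (adjusted p = 0.00201), and without control 1, control 2 or control 3 the call was lost (adjusted p between 0.0587 and 0.0692). The same cluster held no other call. Ifit1 had 12.1, 13.3 and 5.37 FPKM in DSS 1, 2 and 3, against 5.60, 4.84 and 6.13 FPKM in control 1, 2 and 3. DSS 1 and DSS 2 lay above the controls and DSS 3 among them. Its log2 fold change was 0.71 ± 0.31 (SE, limma adjusted p = 0.184), and without DSS 3 it was 1.08 ± 0.18 and passed (adjusted p = 0.0311).

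Ifit3 had 5.73, 3.47 and 3.43 FPKM in DSS 1, 2 and 3, against 3.37, 3.93 and 4.34 FPKM in control 1, 2 and 3. DSS 1 was the highest sample, and the other DSS samples lay within the control range. The log2 fold change was 0.07 ± 0.22 (SE, 95% interval between -0.43 and 0.57, limma adjusted p = 0.864), and its sign turned with median-of-ratios or upper-quartile scaling and without DSS 1 or control 1. Its transcript is 97.8% identical over 1700 bases to that of Ifit3b, a duplicate in the same cluster, so reads may be split between them. The sum of both was 9.56, 4.93 and 4.42 FPKM in DSS 1, 2 and 3, against 4.93, 5.87 and 6.86 FPKM in control 1, 2 and 3, and the groups overlapped as they did for Ifit3 alone. Ifit1bl1, an Ifit1-like gene read on the opposite strand, was by level the most abundant gene of the cluster. It had 207, 86.3 and 48.2 FPKM in DSS 1, 2 and 3, against 246, 240.2 and 324 FPKM in control 1, 2 and 3. All DSS samples lay below the controls, but the difference did not pass (log2 fold change -1.48 ± 0.49, SE, limma adjusted p = 0.106), except without DSS 1 (adjusted p = 0.00371). Ifit3b and Ifit1bl2 had log2 fold changes of -0.05 and 0.34, and of the 3 Ifit genes outside the 10 members 0 passed (limma, 1 at an unadjusted p under 0.05).

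**Figure D2:**
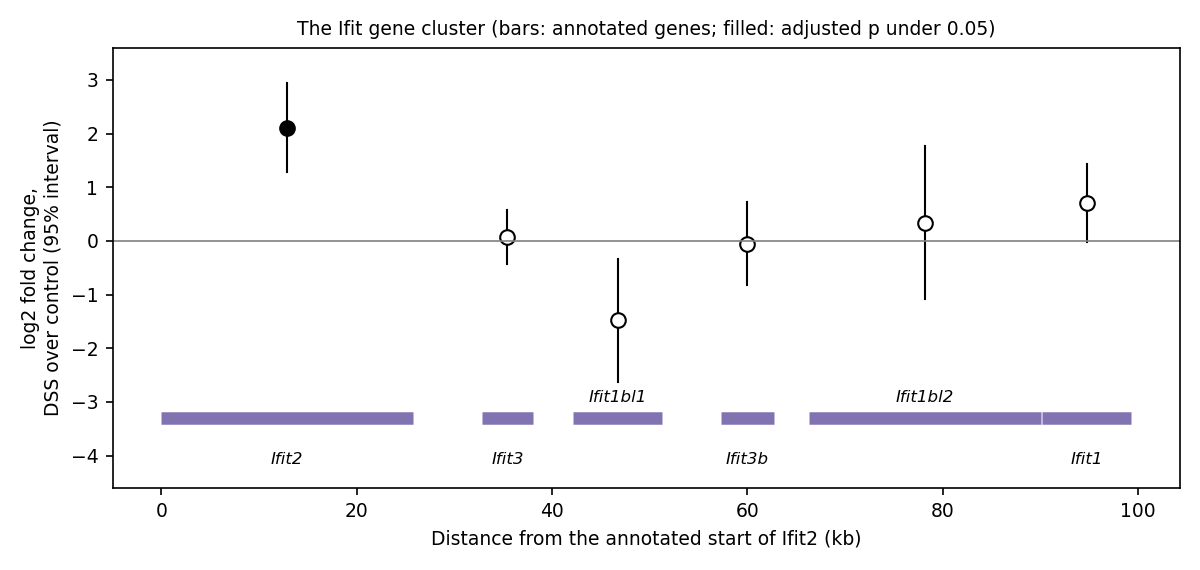
Fitted log2 fold change (DSS over control, of FPKM + 1) of the 6 genes of the Ifit cluster with 95% intervals, placed by distance in kb from the start of Ifit2, with purple bars for the annotated genes. Ifit2, at 2.11, is the filled point that passed, and the other 5 genes did not pass.

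The same values can be given as ratios within each sample, which were chosen after the values were seen and are a description. The ratio of Ifit2 to Ifit3 was 3.56, 2.22 and 2.26 in DSS 1, 2 and 3, against 0.435, 0.440 and 0.466 in control 1, 2 and 3. Ifit3 thus stood above Ifit2 per length in all 3 controls and below it in all 3 DSS samples. The difference was 2.55 on the log2 scale. The ratio of Ifit2 to Ifit1 was 1.68, 0.580 and 1.44 in DSS 1, 2 and 3, against 0.262, 0.357 and 0.330 in control 1, 2 and 3. Here too every DSS sample lay above every control, with DSS 2 nearest to them, with a difference of 1.84 on the log2 scale.

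**Figure D3:**
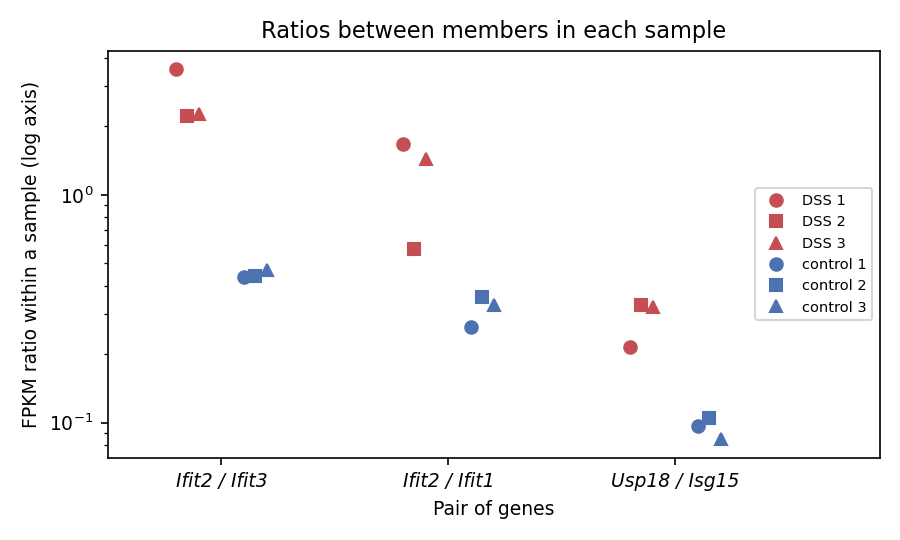
Ratio of FPKM values within each sample, on a log axis, for Ifit2 over Ifit3, Ifit2 over Ifit1 and Usp18 over Isg15, with the 3 DSS samples left of the 3 control samples. In each pair the DSS samples lie above the controls, as for Ifit2 over Ifit3 with 2.22 as the lowest DSS and 0.466 as the highest control value.

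The Mx genes encode dynamin-like GTPases that trap viral ribonucleoproteins, and Mx1 protects mice from influenza virus. C57BL/6 and most inbred strains carry an Mx1 allele with a deletion in the coding exons that leaves no working protein. Mx1 (chromosome 16, 97447035 to 97462907) had 0.963, 1.79 and 2.27 FPKM in DSS 1, 2 and 3, against 0.917, 0.485 and 0.631 FPKM in control 1, 2 and 3. DSS 1 lay barely above the highest control and the other DSS samples clearly above. The gene missed the filter on low values because only 2 samples reached 1 FPKM. With looser filters it was tested and did not pass, at a log2 fold change of 0.65 ± 0.22 (SE, limma adjusted p = 0.123) with a minimum of 0.1 FPKM and adjusted p = 0.16 with none. Mx2 (chromosome 16, 97535308 to 97560900), annotated as a polymorphic pseudogene, had 0.216, 0.0449 and 0.355 FPKM in DSS 1, 2 and 3, against 0.159, 0.300 and 0.0725 FPKM in control 1, 2 and 3, and the groups overlapped. Transcripts of both genes share 95.3% identity over 843 bases, so their low values are uncertain.

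Rsad2 encodes viperin, a radical enzyme that makes a nucleotide which ends viral RNA chains. It (chromosome 12, 26442746 to 26456452) had 2.16, 1.73 and 2.35 FPKM in DSS 1, 2 and 3, against 1.34, 1.57 and 2.01 FPKM in control 1, 2 and 3. The groups overlapped and the log2 fold change was 0.22 ± 0.18 (SE, limma adjusted p = 0.452). Its neighbour Cmpk2, a mitochondrial nucleotide kinase that supplies the same pathway, had 4.09 ± 0.924 FPKM in DSS samples, against 2.86 ± 0.694 FPKM in control samples and did not pass either (limma adjusted p = 0.269).

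Oas1a and Oasl2 belong to the oligoadenylate synthetases, which sense double-stranded RNA and make oligoadenylates, messenger molecules of antiviral defence. Oas1a (chromosome 5, 120896256 to 120907521) was the most abundant member per length. It had 30.2, 18.6 and 22.8 FPKM in DSS 1, 2 and 3, against 39.6, 41.6 and 48.9 FPKM in control 1, 2 and 3. Every DSS sample lay below every control, and the DSS mean was 0.550 of the control mean. The fall had a log2 fold change of -0.86 ± 0.20 (SE, limma adjusted p = 0.0407). The call was lost without DSS 2, DSS 3 or any of the controls (adjusted p between 0.0729 and 0.149), with the replicate number as a block (0.0628) and with no filter (0.0706). The promoter window of Oas1a is shown as the member that fell (RefSeq, GRCm38.p6, chr5:120907476-120907775, minus strand, read in the direction of the gene), with the same core in capitals.
Oas1a: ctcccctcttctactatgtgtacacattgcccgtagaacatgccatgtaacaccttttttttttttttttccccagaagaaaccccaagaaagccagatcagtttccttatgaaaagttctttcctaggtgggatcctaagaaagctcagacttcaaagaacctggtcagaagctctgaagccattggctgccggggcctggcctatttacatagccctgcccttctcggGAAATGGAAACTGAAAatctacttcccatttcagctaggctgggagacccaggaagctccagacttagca

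The Oas1a window holds 2 overlapping matches whose first bases lie 20 and 14 bases before the start. The Isg15 window is set beside it because Isg15 overlapped between groups, and it holds 3 overlapping matches between 78 and 66 bases before the start (chr4:156200769-156201068, minus strand).
Isg15: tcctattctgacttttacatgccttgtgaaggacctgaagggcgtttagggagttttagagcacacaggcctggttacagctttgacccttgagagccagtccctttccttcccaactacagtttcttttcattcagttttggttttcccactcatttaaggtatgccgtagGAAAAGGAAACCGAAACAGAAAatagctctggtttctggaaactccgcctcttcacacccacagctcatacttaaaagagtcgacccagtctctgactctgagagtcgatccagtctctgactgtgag

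Oas1a is 97.6% identical over 1861 bases to its neighbour Oas1g, and reads may be split between them. Oas1g alone had 11.1 ± 4.44 FPKM in DSS samples, against 21.2 ± 2.92 FPKM in control samples (SD, n = 3 each) and did not pass (limma adjusted p = 0.0841). Summed, both genes had 41.6, 25.1 and 38.2 FPKM in DSS 1, 2 and 3, against 63.7, 60.0 and 70.0 FPKM in control 1, 2 and 3. The sums did not overlap, with a difference of -0.89 on the log2 scale (exact two-sided permutation p = 0.1, the smallest possible). Oasl2 (chromosome 5, 114896936 to 114912234), an enzymatically active member with ubiquitin-like domains, had 8.07, 5.68 and 6.84 FPKM in DSS 1, 2 and 3, against 9.75, 7.68 and 7.98 FPKM in control 1, 2 and 3. DSS 1 lay among the controls and DSS 2 and DSS 3 below them, and the log2 fold change of -0.27 ± 0.18 (SE) did not pass (limma adjusted p = 0.36). Oasl1, which represses translation of Irf7, had 12.3 ± 2.94 FPKM in DSS samples, against 12.5 ± 0.869 FPKM in control samples. Oas2 and Oas3 were too low to enter the test. Oas2 stayed below 1 FPKM in all 6 samples, and the groups overlapped. Oas3 had 0.726, 0.605 and 0.559 FPKM in DSS 1, 2 and 3, against 2.155, 0.774 and 0.879 FPKM in control 1, 2 and 3, with no overlap.

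**Figure D4:**
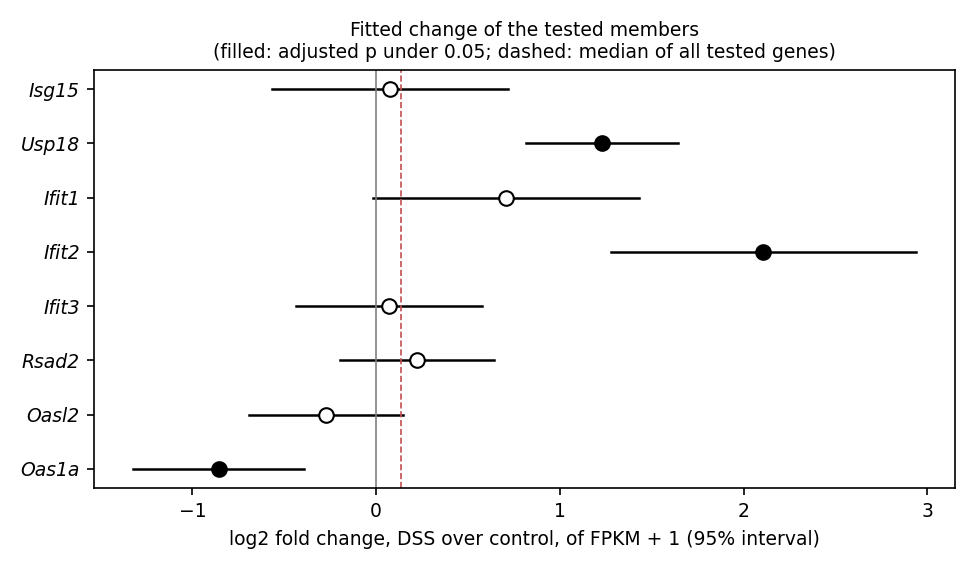
Fitted log2 fold change (DSS over control, of FPKM + 1) of the 8 tested members with 95% intervals; filled points passed at an adjusted p under 0.05, and the dashed line marks the median of all tested genes, 0.13. Ifit2 at 2.11 and Usp18 at 1.23 lie to the right, Oas1a at -0.86 lies to the left, and the intervals of Isg15, Ifit1, Ifit3, Rsad2 and Oasl2 include 0.

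The members did not move as a block. Among the DSS samples, DSS 1 was the highest for 6 of the 8 tested members, DSS 2 for Ifit1 and DSS 3 for Rsad2. The median difference from the control mean over the 8 genes was 0.53, -0.03 and 0.00 on the log2 scale in DSS 1, 2 and 3, against 0.16, 0.04 and 0.20 over all tested genes in the same samples. DSS 1 also held the highest summed B and plasma cell markers, 2673 FPKM against 549 in DSS 2, 134 in DSS 3 and between 527 and 737 FPKM in control colon, and the highest summed pan-leukocyte markers, 335 FPKM against 164 in DSS 2, 183 in DSS 3 and between 64.1 and 120.0 FPKM in control colon. Jchain made up most of the B and plasma cell sum, with 2429, 518 and 120 FPKM in DSS 1, 2 and 3. Cd52 made up most of the pan-leukocyte sum, with 214, 94.2 and 113 FPKM in the same samples. The other genes of both lists were also highest in DSS 1. The part of these cell types in the higher values of DSS 1 was not tested. By level, the order in DSS colon was Oas1a, Isg15, Ifit2, Ifit1, Oasl2, Usp18, Ifit3, Rsad2, Mx1 and Mx2. In control colon it was Oas1a, Isg15, Oasl2, Ifit1, Ifit3, Ifit2, Usp18, Rsad2, Mx1 and Mx2. In DSS colon only the neighbours Ifit3 and Rsad2, and Mx1 and Mx2, had ranges that did not overlap, while in control colon overlap between neighbours occurred only for Ifit2 with Usp18 and Usp18 with Rsad2.

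The genes with a profile most like the median of the members over the 6 samples were Zfp61, Stard4, Hs2st1, Psip1 and Man1a2, with root mean square distances between 0.052 and 0.060 on the log2 scale, followed by Afg3l1, Ldah and Zfp652. None of these 8 genes was on a list of interferon genes used here, and the profile they match is nearly flat apart from DSS 1.

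Upstream of the effectors, the ligands were listed at or near 0. As with Gapdh, such a value can be a failed estimate, so absence of their RNA was not shown. Of 20 genes of type I and type III interferons, Ifnb1, Ifnl2 and Ifnl3 included, 19 were listed at 0 in every sample, and Ifnz reached at most 0.1 FPKM, so none was tested. Of 6 receptor and kinase genes Ifnar2 rose, to 15.6 ± 2.87 FPKM in DSS, against 8.60 ± 0.473 FPKM in control colon (SD, n = 3 each, limma adjusted p = 0.0367). Its call was lost in 8 of the 16 alternatives (adjusted p up to 0.125), among them each left-out control and the ones without DSS 1 or DSS 3. Ifnar1 had 8.04 ± 0.436 FPKM in DSS samples, against 5.59 ± 0.357 FPKM in control samples (adjusted p = 0.0951, limma), and Ifnlr1, the lambda receptor chain, had 3.76 ± 0.584 FPKM in DSS samples, against 3.85 ± 0.329 FPKM in control samples. Among genes for ISGF3 and interferon regulatory factors, Stat2 and Irf8 rose. Stat2, a subunit of ISGF3, had 11.6 ± 2.09 FPKM in DSS samples, against 4.54 ± 1.23 FPKM in control samples (limma adjusted p = 0.0191), and lost the call without DSS 3, control 1 or control 2 (up to 0.0848). Irf8, a factor of myeloid and B cells, lost its call (limma adjusted p = 0.033) without DSS 3, control 1 or control 2 and with no filter (up to 0.12). Irf9, the DNA-binding subunit of ISGF3, had 20.1 ± 3.07 FPKM in DSS samples, against 16.8 ± 3.34 FPKM in control samples (adjusted p = 0.424, limma), and Irf7 had 53.8 ± 19.3 FPKM in DSS samples, against 36.5 ± 4.39 FPKM in control samples (adjusted p = 0.24, limma). Of 13 tested sensor and adaptor genes, Tlr3, Ifi204 and Ikbke rose. Their calls were lost in 8, 3 and 9 of the 16 alternatives. For each gene these included the ones without DSS 3, control 2 or control 3. For Tlr3 and Ikbke they also included upper-quartile scaling, median-of-ratios scaling and no filter. The sensors of cytosolic RNA Ddx58 and Ifih1 did not pass, with Ifih1 at 13.9 ± 5.83 FPKM in DSS samples, against 15.0 ± 2.83 FPKM in control samples.

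Among 49 other tested antiviral genes induced by interferon, 11 rose, Ifi27 fell and 37 did not pass, with a median log2 fold change of 0.22. The 11 were Ifitm1, Ifitm2, Ifitm3, Ifitm6, Zbp1, Ifi27l2a, Phf11b, Phf11d, Ms4a4c, Lgals9 and Gm4951. Of the 16 alternatives, Ms4a4c lost its call in 9, and Zbp1 and Ifi27l2a in 5 each. Ifitm3, Phf11b and Phf11d lost theirs in 4 each and Lgals9 in 2, while Gm4951 passed in all. The Ifitm genes encode small membrane proteins that hinder viral fusion. Ifitm1 had 333, 183 and 206 FPKM in DSS 1, 2 and 3, against 37.5, 26.3 and 27.3 FPKM in control 1, 2 and 3 (log2 fold change 2.92 ± 0.25, SE, limma adjusted p = 0.0011), and shares 97.5% identity over 319 bases with Gm7676. Ifitm6, a member expressed in myeloid cells, had 33.2, 36.0 and 57.0 FPKM in DSS 1, 2 and 3, against 1.93, 0.631 and 1.07 FPKM in control 1, 2 and 3 (log2 fold change 4.28 ± 0.28, SE, limma adjusted p = 0.000442). Both passed under all 16 alternatives (limma), while Ifitm2 lost its call without control 3 (adjusted p = 0.0556). Ifi27 had 38.4 ± 5.35 FPKM in DSS samples, against 75.0 ± 7.16 FPKM in control samples (limma adjusted p = 0.0143, lost without DSS 3, control 2 or control 3, up to 0.0729). Eif2ak2, the kinase PKR that halts translation, did not pass, at 9.03, 6.17 and 1.64 FPKM in DSS 1, 2 and 3, against 8.84, 6.67 and 6.16 FPKM in control 1, 2 and 3. Left out in turn, DSS 3, control 1, control 2 and control 3 lowered the count of higher genes to 7, 6, 4 and 4.

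Genes of the interferon gamma axis differed from the effectors in their counts. Of 28 tested genes 26 were higher, Ifngr1 was lower and Ifngr2 did not pass, and the median log2 fold change was 1.79, against 0.15 for the 8 tested effectors. The difference between the lists was not tested. Some genes of the axis list are near-identical copies, such as Tgtp1 and Tgtp2 (99.8% identity over 2811 bases) and Gbp6 and Gbp10 (99.2% over 3131 bases). Their reads may be shared, so the count and the median do not rest on fully separate signals. Ifng itself had 2.89, 3.02 and 3.36 FPKM in DSS 1, 2 and 3 and was listed at 0 in the 3 controls. Iigp1, a GTPase that disrupts the vacuoles of intracellular parasites, had 46.4, 52.9 and 44.8 FPKM in DSS 1, 2 and 3, against 2.11, 2.20 and 2.49 FPKM in control 1, 2 and 3 (log2 fold change 3.91 ± 0.15, SE, limma adjusted p = 0.000102). Gbp2, a guanylate-binding protein that acts beside it, had a log2 fold change of 1.69 ± 0.30 (SE, limma adjusted p = 0.0163) and lost the call without DSS 3, control 2 or control 3 (up to 0.0763). Cxcl9, a chemokine that draws T cells, had a log2 fold change of 3.55 ± 0.29 (SE, limma adjusted p = 0.000828). Leaving out single samples gave between 19 and 25 higher genes of the 28. This list was put together with earlier results of these data known, and Cxcl10, Tap1 and some of its other members also answer to type I interferon.

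**Figure D5:**
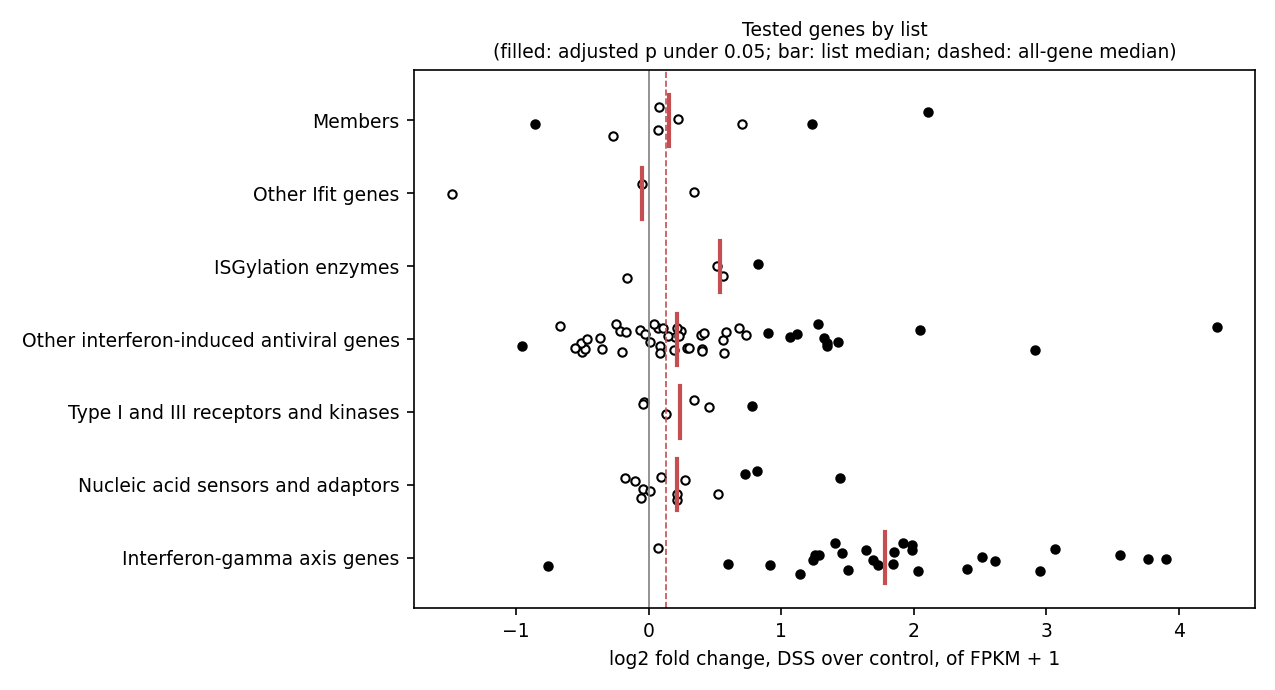
Fitted log2 fold change (DSS over control, of FPKM + 1) of every tested gene of the lists shown, with filled points for an adjusted p under 0.05, red bars at list medians and a dashed line at the all-gene median. The median of the members is 0.15 and that of the other interferon-induced antiviral genes is 0.22, while that of the interferon gamma axis is 1.79.

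Tested markers of neutrophils and of T and NK cells were mostly higher in DSS samples. Most tested markers of the other cell types in the tissue were not called. The sums of markers given here rest mostly on the genes with the highest FPKM. All 10 tested neutrophil markers were higher, with sums between 4114 and 6988 FPKM in DSS samples, against 7.92 to 30.7 FPKM in control samples, and 2 of 5 pan-leukocyte markers were higher. Of 11 monocyte and macrophage markers 2 were higher, with sums between 620 and 877 FPKM in DSS samples, against 467 to 592 FPKM in control samples, and of 7 tested T and NK cell markers 5 were higher. Of 13 epithelial markers 3 were lower, with sums between 11695 and 19037 FPKM in DSS samples, against 15863 to 21003 FPKM in control samples. Of 7 smooth muscle markers 1, Tpm2, was lower, with sums between 1255 and 3490 FPKM in DSS samples, against 3755 to 4729 FPKM in control samples, and a median log2 fold change of -1.12. Of 6 fibroblast markers 1, Pdpn, was higher, as was 1 of 6 endothelial markers, Egfl7, and 0 of 7 B and plasma cell markers were called (limma, 0 at an unadjusted p under 0.05). The part of these cells in the rise of Ifit2 and Usp18 and in the fall of Oas1a was not tested. Of 8 markers of plasmacytoid dendritic cells, a main source of interferon alpha, 2 were tested and Il3ra, a receptor chain that other leukocytes also carry, rose. It averaged 4.08 ± 1.10 FPKM in DSS samples, against 1.67 ± 0.316 FPKM in control samples (SD, n = 3 each, limma adjusted p = 0.045). Tcf4 averaged 4.13 ± 1.81 FPKM in DSS samples, against 4.2 ± 0.238 FPKM in control samples, and did not pass. The sums of the 8 lay between 8.32 and 10.4 FPKM in DSS samples, against 6.41 to 8.42 FPKM in control samples. Of the untested markers Runx2 was higher in each DSS sample than in any control but under 1 FPKM throughout, and Cd300c was listed at 0 in all 6. Siglech went the other way and was lower in each DSS sample than in any control, also under 1 FPKM throughout. It had 0, 0.0411 and 0 FPKM in DSS 1, 2 and 3, against 0.300, 0.672 and 0.218 FPKM in control 1, 2 and 3.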

How the data were processed

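Colon RNA from 3 DSS and 3 control samples was sequenced by the authors, who deposited 1 table of FPKM values per gene for each sample. Per the submitters' processing notes, TopHat2 2.1.1 and the mm10 build were used. The program that made the deposited FPKM values is not given in the sources used here. Read depth is unknown, so no counting interval is given. Of the rows, 27 carry dates in place of gene names.

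Values were taken as deposited, log2(FPKM + 1) transformed and fitted with limma 3.58.1 (R 4.3.3, trend and robust moderation, 2 groups of 3), for genes that reached 1 FPKM in 3 or more samples, with Benjamini-Hochberg adjustment over all 12348 tested genes and a threshold of 0.05. The fit was tested on simulated data. Summed copies were compared with two-sided exact permutation tests. Near-identical copies were transcripts with at least 95% identity over at least 200 bases in BLAST+ 2.17.0 searches of GENCODE vM21. Promoter windows came from RefSeq. The alternatives, 16 in all, changed scaling, pseudocount, filter, moderation or the replicate block, or left out 1 sample.

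All 10 members are reported in every sample. Other genes named were up to 4 with the smallest p per list, a set of key pathway genes, the 8 nearest profiles, genes behind a count of 5 or fewer and near-identical copies. The members and lists were chosen with earlier results of these data known. Some items on the lists are not reported here.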

Additional observations from a re-analysis of the deposited data

How the results depend on the processing

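Of the 10 members, Isg15 and Ifit3 changed sign between settings, and neither passed in any. The log2 fold change of Isg15 was -0.051 with upper-quartile scaling and -0.073 with median-of-ratios scaling, and lay between -0.177 and 0.304 when single samples were left out (-0.002 without control 1 and -0.027 without control 2). That of Ifit3 was -0.037 and -0.055 under the same scalings, and between -0.129 and 0.173 when single samples were left out (-0.006 without control 1). The number of members that were higher lay between 0 and 3 when single samples were left out (0 without control 2, where limma gave 2 at an unadjusted p under 0.05), and the number that were lower between 0 and 1. No member was lower with no filter (0) or with the replicate block (0, 1 at an unadjusted p under 0.05, limma). Over all genes, between 288 and 1771 were called when single samples were left out, against 1099 with all 6. The causes were not tested. The labels do not say if the shared replicate numbers pair the samples. Deviations of same-numbered samples correlated at 0.08, 0.13 and 0.00, and those of differently numbered samples at between -0.113 and 0.034. DSS 1 and DSS 2 correlated best with the control of their own number, and DSS 3 with control 1. So few samples cannot decide if they were paired. With the replicate block 895 genes were called, 2 members were higher, and Oas1a had adjusted p = 0.0628 (limma).

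Read depth is unknown, and the smallest change detectable in low genes such as Mx1, Mx2 and Rsad2 was not estimated.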

Other observations

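Genes of the HIN-200 and Schlafen families, interferon-inducible genes of immune cells, were listed after other values had been seen, so their counts are a description. Of 7 tested HIN-200 genes, which encode DNA-binding proteins, Ifi204, Ifi205, Mnda and Mndal rose. Ifi205 had 13.7, 16.7 and 18.6 FPKM in DSS 1, 2 and 3, against 6.81, 3.58 and 2.60 FPKM in control 1, 2 and 3 (limma adjusted p = 0.0139). The groups did not overlap, and the call was lost without DSS 3, control 2 or control 3 (up to 0.0687). Ifi204 and Mnda lost their calls without the same samples (up to 0.0842 and 0.0847), and Mndal in 5 of the 16 alternatives, those without DSS 3 or any control included (up to 0.114). Aim2, the sensor of cytosolic DNA that forms an inflammasome, averaged 25.8 ± 3.53 FPKM in DSS samples, against 24.1 ± 2.25 FPKM in control samples (SD, n = 3 each). Transcripts of Ifi204 and Ifi205 share over 95% identity with Mndal and Ifi211, and the deposited tables do not show how their shared reads were assigned.

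Of 4 tested Schlafen genes, regulators of growth in T and myeloid cells, Slfn1, Slfn2 and Slfn4 rose and Slfn5 did not pass. Slfn1 had 4.69, 4.14 and 3.23 FPKM in DSS 1, 2 and 3, against 0.128, 0 and 0.335 FPKM in control 1, 2 and 3, with no overlap (log2 fold change 2.12 ± 0.20, SE, limma adjusted p = 0.00139), and it passed under all 16 alternatives. Slfn4 had 17.3, 22.6 and 32.2 FPKM in DSS 1, 2 and 3, against 8.64, 6.40 and 5.84 FPKM in control 1, 2 and 3 (limma adjusted p = 0.0105), and it lost the call without control 2 or control 3 (up to 0.058). Slfn2 (limma adjusted p = 0.0199) lost its call without any one of the controls (up to 0.0733). The summed neutrophil and T cell markers were higher in the same DSS samples, and their part in these values was not tested.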
